A study of Mus musculus with 3 samples.

Results

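The genes described here are 40 markers of the cell cycle, 20 assigned to S phase and 20 to G2 and mitosis (G2/M), measured in single cells of mouse fracture callus. They were taken as a list of names and matched to the gene symbols of the deposited count tables, and all 40 were among the 32285 genes counted. For calling single cells, 18 genes made up the S list and 19 the G2/M list. Ccnd1 and Ccnd2, which act in G1, and Stmn1, a tubulin-binding protein that many non-dividing cells also express, were described apart.

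The callus came from C57BL/6 mice whose femur had been cut at mid-shaft and pinned, and it was collected at day 7, day 10, and day 14 after fracture. Surgery was under isoflurane with buprenorphine for pain, and no other treatment was described for these mice. It was cleaned of muscle and marrow and digested with type I collagenase, and live cells negative for CD45, CD31, and TER119 were sorted to keep skeletal cells and to leave out blood and endothelial cells. Each day gave 1 droplet library, and no unfractured bone was included. A difference between days could therefore not be told apart from a difference between libraries, and neither the age of the mice nor the number pooled per day was given in the sources used here.

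In these libraries each captured mRNA carries a unique molecular identifier (UMI), and levels are given as CPM, the usual scaling of a gene's UMIs by all UMIs of the same group of cells. The day 7, day 10, and day 14 libraries held 8439, 8226, and 12067 cells with at least 500 genes, and their medians were 6022, 17174, and 15518 UMIs per cell. No upper limit was set on genes per cell. At day 7, 89.5% of the cells held at least 1 UMI of Ptprc, the gene of CD45, against 6 cells at day 10 and 193 cells at day 14, so the day 7 library did not have the makeup that its sort describes. Its skeletal values rest on 504 cells. These cells also carried S100a8, a neutrophil gene, at 642 CPM in the Aspn class and 670 CPM in the Col9a1 class described below, against 65651 CPM in Ptprc-positive cells. The erythroid genes Hba-a1, Hba-a2, Hbb-bs, Hbb-bt, and Alas2 summed to 2391 CPM in the Aspn class and 1329 CPM in the Col9a1 class of day 7, against 3478 CPM in Ptprc-positive cells and at most 4.99 CPM in the 2 skeletal classes at day 10. The source of these blood-cell transcripts in skeletal cells, and their part in the day 7 levels of cell cycle genes, was not tested. Between 29 and 42 cell barcodes were shared by each pair of libraries.

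A cell that divides copies its DNA in S phase and then, after the G2 gap, separates the copies in mitosis. Genes for copying, such as the Mcm helicase and the enzymes that make nucleotides, are transcribed ahead of and during S phase under E2F factors. Genes for the spindle, the kinetochore, and the mitotic kinases peak in G2 and mitosis. Many of them do so through the DREAM and MuvB complexes acting at CHR elements (TTTGAA), and many of their promoters also hold CCAAT boxes. In a healing fracture, fibroblast-like periosteal cells and early chondrocytes divide, and chondrocytes leave the cycle as they become hypertrophic and turn on Col10a1. Inhibitors of cyclin-dependent kinases, among them Cdkn1a and Cdkn1c, accompany that exit.

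Promoters of the members showed which of these sequence elements the lists hold. RefSeq promoter sequences on GRCm38.p6 were at hand for 31 of the 40 members, 15 of the S list and 16 of the G2/M list, each running from 250 bases before to 50 bases after a transcript start, and a gene with several entries was counted if any of them held the word. No promoter entry was used for Mcm4, Gins2, Ccne2, Ccna2, Tpx2, Aurkb, Ccnd1, Ccnd2, and Stmn1. CCAAT, read on both strands, was found in 11 of 15 S members (73.3%) and 15 of 16 G2/M members (93.8%), against 37.4% of all 32851 promoters. TTTGAA, also on both strands, was found in 1 of 15 S members (6.67%) and 12 of 16 G2/M members (75.0%), against 17.9% of all promoters. The exact E2F words TTTGGCGC, TTTCGCGC, TTTCCCGC, and TTTGCCGC, again on both strands, were found in 8 of 15 S members (53.3%) and 1 of 16 G2/M members (6.25%), against 2.27% of all promoters. Since both strands were read, CCAAT and TTTGAA can share a base at their ends, and E2F words can share bases across strands. CCAAT and TTTGAA together occurred in 12 of 16 G2/M members, 1 of 15 S members, and 6.95% of all promoters. The G2/M member with an E2F word was Cdk1.

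The stretches before the start of 5 members follow, 5′ to 3′ in the direction of the gene and ending 1 base before the RefSeq start, with every CCAAT, every TTTGAA, and every E2F word in capitals, including those that lie on the other strand and so read in reverse complement. Cdk1, Ccnb2, and Ube2c are shown as G2/M members with paired CCAAT boxes, and Mcm5 and Mcm6 as S members with E2F words.
Cdk1, chr10:69352913-69353052, minus strand: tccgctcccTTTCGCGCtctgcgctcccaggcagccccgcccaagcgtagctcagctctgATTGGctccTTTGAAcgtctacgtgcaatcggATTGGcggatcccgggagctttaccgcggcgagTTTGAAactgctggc
Ccnb2, chr9:70421555-70421694, minus strand: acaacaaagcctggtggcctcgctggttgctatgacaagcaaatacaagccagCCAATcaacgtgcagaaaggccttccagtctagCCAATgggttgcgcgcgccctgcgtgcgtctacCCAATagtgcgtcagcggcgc
Ube2c, chr2:164769789-164769928, plus strand: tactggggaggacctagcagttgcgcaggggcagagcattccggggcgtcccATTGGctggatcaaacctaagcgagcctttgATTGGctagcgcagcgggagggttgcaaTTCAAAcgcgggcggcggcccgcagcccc
Mcm5, chr8:75109349-75109508, plus strand: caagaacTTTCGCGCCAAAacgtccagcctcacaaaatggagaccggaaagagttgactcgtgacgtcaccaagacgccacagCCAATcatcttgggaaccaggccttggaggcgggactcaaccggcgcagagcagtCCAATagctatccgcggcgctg
Mcm6, chr1:128359706-128359845, minus strand: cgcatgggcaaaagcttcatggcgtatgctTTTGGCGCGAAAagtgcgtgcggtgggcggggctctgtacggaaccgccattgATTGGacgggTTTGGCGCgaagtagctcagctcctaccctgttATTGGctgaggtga
Ccnb2 carried 3 CCAAT words, and Cdk1, Ube2c, Mcm5, and Mcm6 carried 2 each within the printed stretch. The pair of E2F words at the 5′ end of the Mcm5 stretch and the upstream pair of Mcm6 share bases. Sequence just after the start matched GENCODE transcripts in the direction of the gene for Cdk1 and Ube2c, and not for Ccnb2, Mcm5, and Mcm6. Over all members, 26 of 34 promoter entries matched in this direction and 0 on the other strand. The Cdk1 and Ube2c stretches run past the GENCODE gene starts, at 69352938 and 164769898, so their last bases lie inside the gene. A match of letters is a description of the sequence and does not show that a factor binds there.

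Cells were placed in classes by markers that are not cell cycle genes. Skeletal cells had no Ptprc UMI and at least 1% of their UMIs from Col1a1, Col1a2, Col2a1, Col3a1, and Sparc. Among them, cells with more Aspn than Col9a1 UMIs formed the Aspn class (fibroblastic, Aspn being a small matrix proteoglycan of periosteum), and cells with more Col9a1 than Aspn formed the Col9a1 class (Col9a1 encoding a chain of cartilage collagen). The Aspn class held 105, 2888, and 6019 cells at day 7, day 10, and day 14, and the Col9a1 class 340, 4810, and 4461 cells. Col10a1-high cells (at least 5000 CPM) numbered 24, 680, and 1561, Ifitm5-positive cells (at least 500 CPM, a marker of osteoblasts) 9, 152, and 458, and Rgs5-high cells (at least 1000 CPM, a marker of pericytes) 0, 88, and 215, each with at least 3 UMIs of its marker. These 3 classes overlap the others. At day 10, 632 of the Col10a1-high cells lay in the Col9a1 class and 80 of the Rgs5-high cells in the Aspn class, and at day 14 these were 1225 and 192. Of the Ifitm5-positive cells, 84 of 152 at day 10 and 172 of 458 at day 14 lay in the Col9a1 class, and 21 and 103 in the Aspn class.

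Other markers fitted the labels of the classes. At day 10, Postn was at 3400 CPM in the Aspn class and 499 CPM in the Col9a1 class, and Col2a1 at 2132 CPM and 39736 CPM. Ihh, a signal of prehypertrophic and hypertrophic chondrocytes, was at 679 CPM in Col10a1-high cells of day 10. Bglap, the gene of osteocalcin, was at 7272 CPM in Ifitm5-positive cells, and Mcam at 327 CPM in Rgs5-high cells of that day. Of the endothelial genes, Pecam1, the gene of CD31, was at most 6.27 CPM in any of these classes. Emcn was at 41.5 CPM in Rgs5-high cells of day 10 and 22.9 CPM in those of day 14, while Cdh5 was at 0 on both days and Kdr at 0 and 0.369 CPM. Pecam1, Cdh5, Kdr, and Emcn summed to 44.5 and 29.5 CPM in Rgs5-high cells, against at most 4.64 CPM in the other skeletal classes of these days, and the part of endothelial RNA in the Rgs5-high values was not tested.

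To compare cells of unequal depth, each cell was thinned at random to 2000 UMIs, and shallower cells were left out, numbering 558, 290, and 514 over the whole of the day 7, day 10, and day 14 libraries. A cell with at least 3 UMIs of the G2/M list was called G2/M, and any other cell with at least 3 UMIs of the S list was called S. The calls were checked with genes that did not make them. Each member was measured in cells called without it, and at day 10 in the Aspn class all 19 G2/M genes were higher in G2/M cells than in S cells, with a median of 52.9-fold over uncalled cells. In the Col9a1 class of the same day the median was 147-fold. Of 30 control genes outside both lists, 20 were also higher in G2/M cells than in uncalled cells of the Aspn class and 3 lower. These 30 genes are themselves regulators of the cycle, such as E2F genes and kinase inhibitors, and so are no neutral baseline. Their median was 1.49-fold. In the Col9a1 class 23 were higher and 2 lower, with a median of 2.45-fold. The 18 S genes were all higher in S cells than in uncalled cells, with medians of 7.64-fold and 12.6-fold. The share of all genes that were higher in called than in uncalled cells was not measured for this or the next paragraph. Called cells (S or G2/M) of the Aspn class at day 10 had a median of 4385 genes, against 3650 in uncalled cells. S cells also had the 19 G2/M genes above uncalled cells in both classes, with medians of 8.91-fold and 18.5-fold. Ube2c, the ubiquitin-conjugating enzyme of the anaphase-promoting complex, was at 65.4 CPM in S cells, 419 CPM in G2/M cells, and 6.20 CPM in uncalled cells of the Aspn class. Cdc6, which loads the Mcm helicase onto origins, was at 32.5, 7.196, and 1.67 CPM.

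The S list was not restricted to S cells, since all 18 of its genes were also higher in G2/M cells than in uncalled cells at day 10, with medians of 3.90-fold in the Aspn class and 6.81-fold in the Col9a1 class. Of the 30 control genes, 20 and 23 were also higher there, with medians of 1.49-fold and 2.45-fold. Pclaf, a binding partner of PCNA, was at 240 CPM in S cells and 310 CPM in G2/M cells of the Aspn class at day 10, and Tyms, thymidylate synthase, at 90.4 and 114 CPM. Of the UMIs of Slbp, the histone mRNA-binding protein, 69.6% lay in uncalled cells of this class, and of those of Mcm6 59.4%, against 9.06% for Top2a. Over the S list this share ran from 11.5% (Pclaf) to 69.6%, and over the G2/M list from 6.59% (Plk1) to 32.5% (Cenpa), so that the ranges of the lists overlapped. Of the S list, 8 of 18 genes, Slbp, Pcna, and Mcm6 among them, had most of their UMIs in uncalled cells of this class, against 0 of 19 of the G2/M list, and in the Col9a1 class 11 of 18 and 0 of 19 had. Uncalled cells were 2444 of 2829 cells in the Aspn class and 4406 of 4696 in the Col9a1 class. A gene with the same UMIs in every cell would therefore also have most of them there. Genes outside both lists gave the same picture. For 12 further S genes such as Hells and Mcm10, all 12 were higher in S cells of the Aspn class at day 10 than in uncalled cells, with a median of 13.6-fold, and for 15 further G2/M genes such as Nusap1, all 15 were higher in G2/M cells, with a median of 41.8-fold. Of the 30 control genes, 18 were higher and 6 lower in these S cells than in uncalled cells, with a median of 1.59-fold. Foxm1 was counted both among the 15 further G2/M genes and among the control genes. Hells was at 145 CPM in S cells and Nusap1 at 92.9 CPM in G2/M cells, against 0.703 CPM of Nusap1 in uncalled cells.

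Among the skeletal classes, the share of G2/M cells was largest in Rgs5-high cells, next in the Aspn class, lower in the Col9a1 class, and lowest in Col10a1-high cells at day 10. The values were 18.4% (16 of 87 cells, 95% Clopper-Pearson interval 10.9 to 28.1), 10.2% (288 of 2829 cells, 9.09 to 11.4), 4.71% (221 of 4696 cells, 4.12 to 5.35), and 0.152% (1 of 656 cells, 0.00386 to 0.846). The Rgs5-high share exceeded that of the Aspn cells that were not Rgs5-high, 9.89%, by 8.496 percentage points (95% Newcombe interval 1.65 to 18.0). The Ifitm5-positive share was 4.03% (1.49 to 8.56), with an interval that held the Col9a1 share. It was 1.08% with the marker limits doubled and 7.78% in cells with at least 1 Ifitm5 UMI. All intervals cover counting error only, since cells of 1 library are not replicates and PCR and capture effects are not included. No p-values were computed.

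At day 14 the shares were 10.5% in Rgs5-high cells (6.68 to 15.4), 4.95% in the Aspn class (4.41 to 5.54), 3.89% in the Col9a1 class (3.34 to 4.51), 2.88% in Ifitm5-positive cells (1.54 to 4.87), and 0.856% in Col10a1-high cells (0.456 to 1.46). From day 10 to day 14 the share differed by -5.23 percentage points in the Aspn class (95% Newcombe interval -6.51 to -4.02), by -0.816 points in the Col9a1 class (-1.65 to 0.0222), and by -7.91 points in Rgs5-high cells (-17.9 to 0.405). Only the Aspn interval lay wholly below 0. Day 7 gave 10.5% in the Aspn class (5.35 to 18.0) and 5.74% in the Col9a1 class (3.49 to 8.82) from 105 and 331 cells, and no called cell among 24 Col10a1-high cells or 9 Ifitm5-positive cells. A count of 0 there allows 12.5% and 33.3% when 3 cells are taken as the limit, and the upper Clopper-Pearson bounds are 14.2% and 33.6%.

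**Figure D1:**
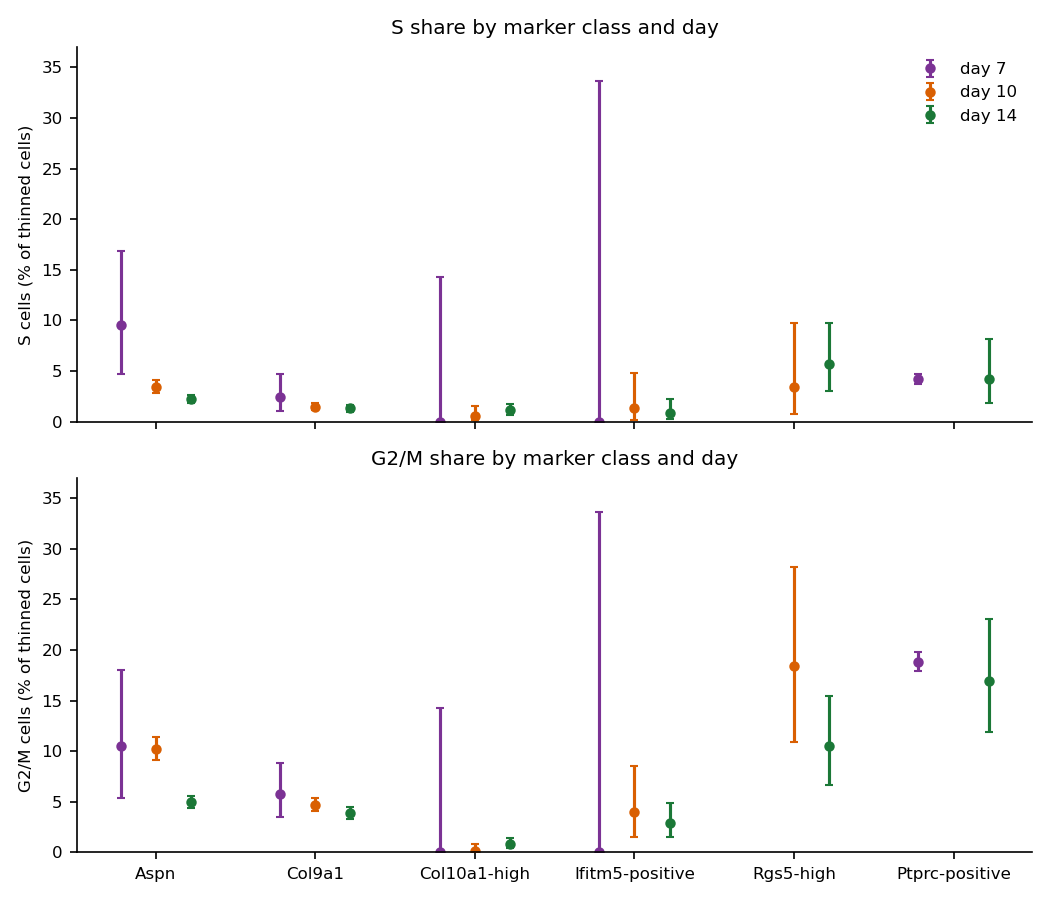
Share of cells called S and share called G2/M (percent of cells thinned to 2000 UMIs, y axis) by class and day (x axis). Bars along each point are 95% Clopper-Pearson intervals, which cover counting error only. Rgs5-high cells sit highest among skeletal classes for G2/M at day 10 (18.4%) and day 14 (10.5%), and Col10a1-high cells lowest (0.152% and 0.856%).

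The gap between the Aspn and Col9a1 classes was wide at day 10 and narrow at day 14. In G2/M it was 5.47 points at day 10 (4.23 to 6.77) and 1.06 points at day 14 (0.249 to 1.85). Left without the Col10a1-high, Ifitm5-positive, and Rgs5-high cells, the classes differed by 4.46 points at day 10 (3.16 to 5.82), and at day 14 the direction turned, with 4.87% of Aspn cells against 5.19% of Col9a1 cells, the interval of the difference (Aspn minus Col9a1) running from -1.33 to 0.640 points. The higher day 14 share of the Aspn class was therefore seen only with these overlapping cells counted in.

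By the calls from 3 UMIs, S shares were also higher in the Aspn class than in the Col9a1 class. In the Aspn class they were 9.52% (4.66 to 16.8) at day 7, 3.43% (2.79 to 4.17) at day 10, and 2.20% (1.84 to 2.61) at day 14, and in the Col9a1 class 2.42% (1.05 to 4.71), 1.47% (1.14 to 1.86), and 1.30% (0.989 to 1.69). The Aspn class was higher by 7.11 points at day 7 (2.27 to 14.3), 1.96 points at day 10 (1.24 to 2.76), and 0.895 points at day 14 (0.380 to 1.40), the last being 0.569 points (-0.0385 to 1.13) without the overlapping cells. With the phase scores of scanpy the order of S turned at day 14, with 27.3% in the Aspn class and 27.8% in the Col9a1 class. In Rgs5-high cells the S share was 3.45% at day 10 (0.717 to 9.75), level with the Aspn class, and 5.71% at day 14 (2.99 to 9.77), which was 3.64 points above that of the Aspn cells that were not Rgs5-high (1.19 to 7.66). In Ifitm5-positive cells it was 1.34% (0.163 to 4.76) and 0.885% (0.242 to 2.25). Col10a1-high cells had 0.610% and 1.12% S cells, so that at day 10 they held 4 S cells and 1 G2/M cell. In the Aspn class at day 10, 205 cells had 2 UMIs of the S list, 66 had 3, and 129 had 4 or more, cells called G2/M included, against 75, 53, and 235 for the G2/M list.

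The levels of the members, summed over all UMIs of a class, did not use the calls. The 19 G2/M genes together were at 459, 612, and 370 CPM in the Aspn class at day 7, day 10, and day 14, and at 321, 358, and 304 CPM in the Col9a1 class. The 18 S genes together were at 498, 424, and 288 CPM in the Aspn class and at 275, 245, and 209 CPM in the Col9a1 class. Both sums were higher in the Aspn class on each day, with the overlapping cells counted in. In Col9a1 cells that were not Col10a1-high and Aspn cells that were not Rgs5-high, the day 14 order of the G2/M sum turned. Single genes went both ways there. Top2a was at 36.7 CPM in these Col9a1 cells and 29.5 CPM in these Aspn cells, and Ccnb2 at 14.6 and 18.1 CPM. The plot of member levels shows each gene.

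**Figure D2:**
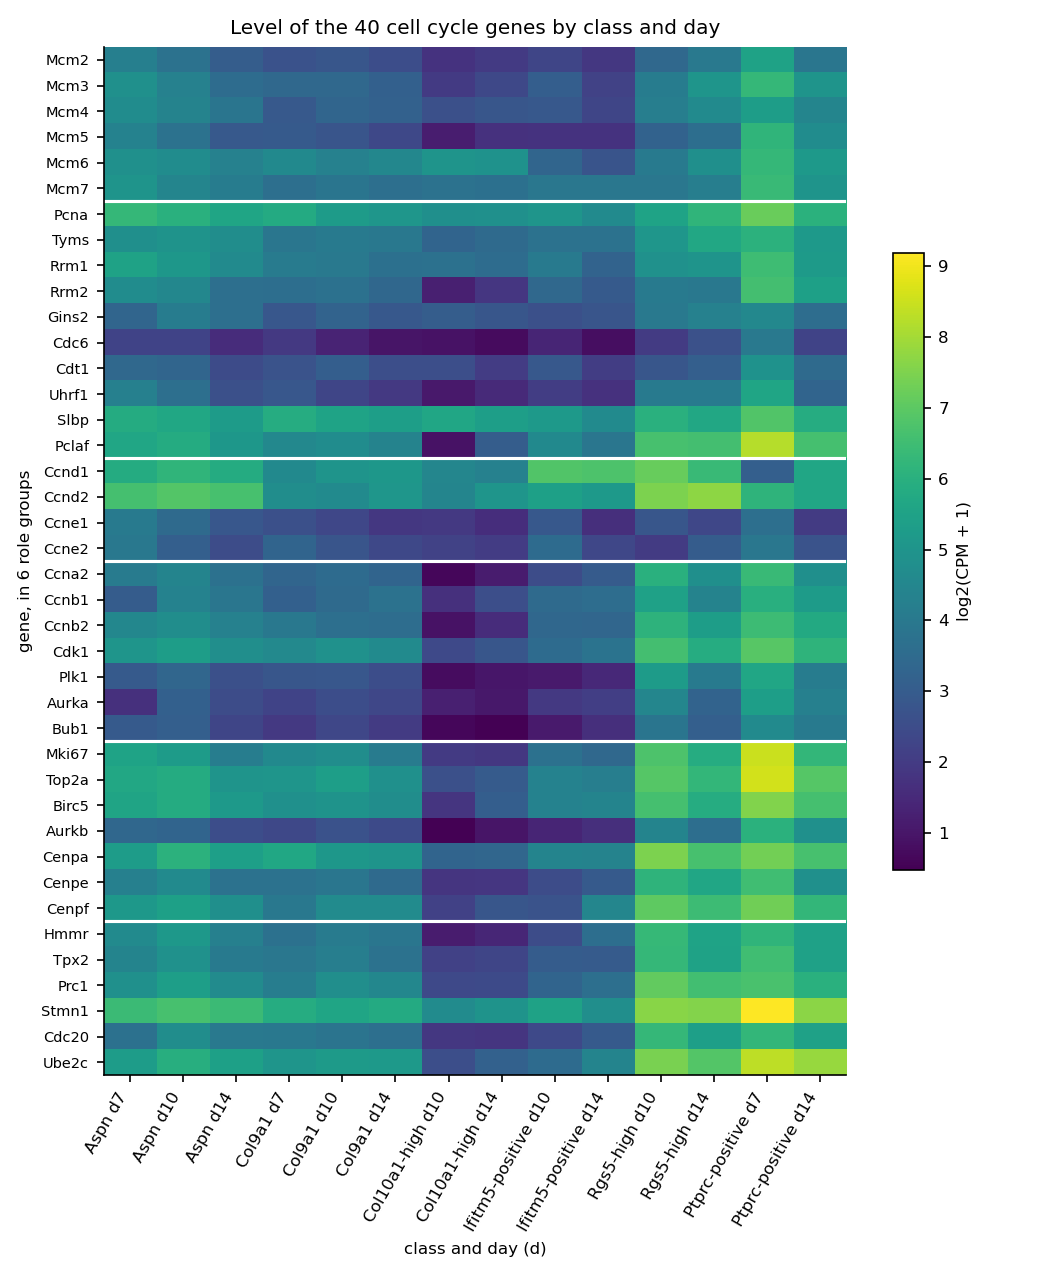
Level of each of the 40 members (color, log2 of CPM of summed UMIs plus 1) in each class and day, with white lines between the role groups. Day 7 is shown for the Aspn, Col9a1, and Ptprc-positive classes only. G2/M genes are dim in Col10a1-high cells, where Mki67 was at 2.93 CPM at day 10, and bright in Rgs5-high and Ptprc-positive cells, where it reached 108 CPM on day 10 and 363 CPM on day 7, respectively.

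Set against the Col9a1 class at day 10, 32 of the 40 members were higher by at least 1.5-fold in the Aspn class, as were 28.5% of the 14097 genes with at least 50 UMIs, and 0 members were lower, as were 11.3% of these genes. The members' median log2 difference was 0.92, against 0.27 over all genes. At day 14, 14 members were higher (all genes 28.5%, median log2 0.28) and 0 lower (all genes 10.2%), with a median of 0.41. The G2/M list then had a median of 0.27, close to that of all genes, and the S list 0.63. The day 14 count was 28 with at most 5000 genes per cell, 7 without the overlapping classes, and 6 with ratios centred on the median of all genes. Of the 14, 10 were S genes, 1 was a G2/M gene (Ccnb2), and the others were Ccnd1, Ccnd2, and Stmn1.

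From day 10 to day 14, 25 of the 40 members were lower by at least 1.5-fold in the Aspn class, as were 6.0% of all genes tested, and 0 were higher, as were 5.4%. At 2-fold, 2 were lower. In the Col9a1 class 4 were lower, as were 5.53% of all genes, and 0 were higher, as were 5.45%. This count ran from 0 at 2-fold to 16 at the lowest fold limit tried, and it was 2 with at most 5000 genes per cell and 1 without the overlapping classes. The 4 were Mki67, with a log2 change of -0.66 (-0.75 to -0.56), Cdc6, with -0.72 (-1.12 to -0.33), Cdt1, with -0.62 (-0.80 to -0.45), and Ccne1, with -0.59 (-0.83 to -0.35). The members' median log2 change was -0.73 in the Aspn class and -0.27 in the Col9a1 class, against -0.03 over all genes in each.

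**Figure D3:**
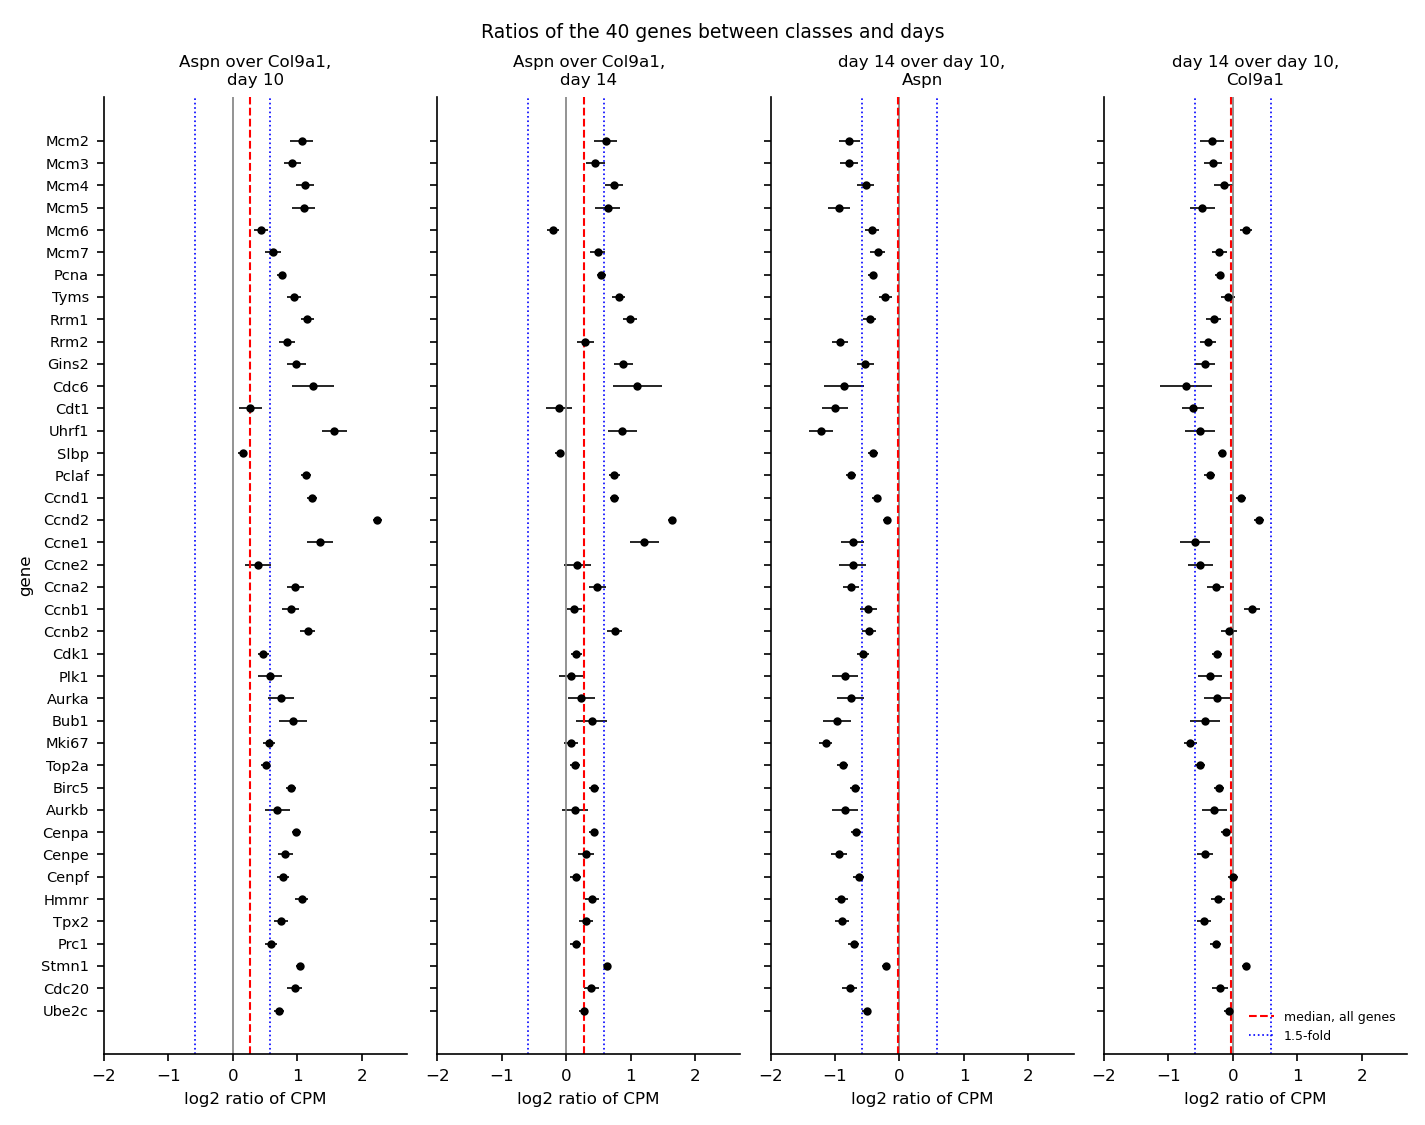
Log2 ratio of each member (x axis) for the Aspn over the Col9a1 class at day 10 and day 14, and for day 14 over day 10 within each class, with genes grouped by role. Lines through the points are exact 95% intervals from counting error, dotted lines mark 1.5-fold, and the dashed line is the median of all genes. In the Aspn class every member lies below 0 from day 10 to day 14, from -0.20 for Ccnd2 to -1.22 for Uhrf1.

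The Mcm2 to Mcm7 genes encode the helicase that opens DNA at replication origins. Mcm5 was at 19.5, 12.5, and 6.57 CPM in the Aspn class at day 7, day 10, and day 14, and at 6.77, 5.85, and 4.21 CPM in the Col9a1 class. Mcm4 was at 25.5, 19.6, and 13.6 CPM and at 6.51, 8.99, and 8.13 CPM, and Mcm7 at 31.1, 20.8, and 16.4 CPM and at 11.7, 13.5, and 11.7 CPM. In these 3 genes the Aspn class was higher on each day. Mcm6 differed. It was at 28.1, 25.5, and 18.9 CPM in the Aspn class and at 23.6, 18.8, and 21.8 CPM in the Col9a1 class, with a log2 difference of 0.44 (0.33 to 0.54) at day 10 and of -0.20 (-0.30 to -0.11) at day 14. At day 10, 5 of the 6 helicase genes were higher by at least 1.5-fold in the Aspn class, and at day 14, 3 of the 6 were (all genes 28.5% on each day). In the Aspn class, 3 of the 6 were lower by at least 1.5-fold at day 14 than at day 10 (all genes 6.0%).

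Among the replication genes, Pcna, the clamp that holds polymerases on DNA, was at 76.0, 63.1, and 47.4 CPM in the Aspn class and at 55.4, 37.4, and 32.4 CPM in the Col9a1 class. Pclaf was at 48.7, 56.3, and 33.4 CPM and at 22.6, 25.6, and 19.9 CPM. Both were higher in the Aspn class on each day, with log2 differences at day 10 of 0.76 (0.68 to 0.83) and 1.14 (1.06 to 1.22). Uhrf1, which brings DNA methylation to new strands, had the largest difference of the S list at day 10, 1.57 (1.38 to 1.77), and the largest change from day 10 to day 14 in the Aspn class, -1.22 (-1.40 to -1.03), with 18.4, 11.7, and 5.05 CPM over the 3 days, against 6.15, 3.93, and 2.76 CPM in the Col9a1 class. Slbp stood near equality, at 55.8, 50.1, and 37.5 CPM against 57.0, 45.1, and 40.2 CPM, with log2 differences of 0.15 (0.08 to 0.23) at day 10, below the median of all genes, and -0.10 (-0.17 to -0.03) at day 14. Cdt1, the licensing factor that works with Cdc6, also differed little at day 10 and day 14. It was at 9.74, 9.06, and 4.54 CPM in the Aspn class and at 5.53, 7.52, and 4.89 CPM in the Col9a1 class, with log2 differences of 0.27 (0.09 to 0.45) at day 10 and -0.11 (-0.31 to 0.09) at day 14.

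The G1 cyclins differed unequally between the classes. Ccnd2, a D cyclin that starts the cycle with Cdk4 and Cdk6, was at 98.5, 114, and 99.4 CPM in the Aspn class and at 25.9, 24.2, and 32.0 CPM in the Col9a1 class. Ccnd1 was at 56.9, 71.4, and 55.9 CPM and at 23.6, 30.5, and 33.2 CPM. The log2 difference of Ccnd2 was 2.24 (2.17 to 2.31) at day 10 and 1.64 (1.58 to 1.70) at day 14, the largest among the 40 members at each of these days. In the Aspn class Ccnd2 was not concentrated in called cells. At day 10 it was there at 144 CPM in S cells, 66.1 CPM in G2/M cells, and 120 CPM in uncalled cells, and 87.1% of its UMIs lay in uncalled cells. It was higher in S cells than in uncalled cells in the Col9a1 class, 2.55-fold (2.07 to 3.12) at day 10 and 1.81-fold (1.41 to 2.29) at day 14, and in Ptprc-positive cells of day 7, 4.03-fold (3.75 to 4.33), where G2/M cells were also higher, 1.97-fold (1.86 to 2.10). Ccne1, the cyclin of the G1 to S step, had log2 differences of 1.35 (1.15 to 1.55) and 1.21 (0.99 to 1.44), and Ccne2, its paralog, of 0.39 (0.19 to 0.59) and 0.18 (-0.03 to 0.38), so the interval of Ccne2 at day 14 included 0. Ccne2 was at 14.6, 7.75, and 4.69 CPM in the Aspn class and at 8.74, 5.90, and 4.15 CPM in the Col9a1 class over the 3 days, and Ccne1 at 15.7, 10.3, and 6.20 CPM and at 5.08, 4.02, and 2.67 CPM. Both were lower on each later day in both classes.

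Of the mitotic kinases and their cyclins, Cdk1 was at 31.5, 39.6, and 26.8 CPM in the Aspn class and at 22.8, 28.5, and 24.0 CPM in the Col9a1 class. Ccnb2, a B cyclin that binds Cdk1, was at 22.1, 25.9, and 18.7 CPM and at 14.8, 11.6, and 11.1 CPM. Ccnb1, the other B cyclin here, was at 7.12, 19.3, and 13.8 CPM and at 7.84, 10.3, and 12.7 CPM. The B cyclins parted at day 14. The log2 difference between the classes was 0.75 (0.64 to 0.87) for Ccnb2 and 0.12 (0.01 to 0.24) for Ccnb1, and from day 10 to day 14 in the Col9a1 class the log2 change was 0.29 (0.17 to 0.42) for Ccnb1 and -0.06 (-0.19 to 0.06) for Ccnb2. Of the 7 genes of this group, 5 were higher by at least 1.5-fold in the Aspn class at day 10 and 1 at day 14, as were 28.5% of all genes on each day.

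Of the chromosome genes, 7 of 7 were lower by at least 1.5-fold at day 14 than at day 10 in the Aspn class, as were 6.0% of all genes. Top2a, which untangles replicated DNA, was at 50.9, 56.8, and 30.8 CPM, Cenpa, the histone of the centromere, at 37.8, 66.2, and 41.5 CPM, and Birc5, of the chromosomal passenger complex, at 46.8, 56.5, and 34.9 CPM. Mki67, which coats mitotic chromosomes, was at 45.7, 37.8, and 17.1 CPM, a log2 change of -1.14 (-1.24 to -1.04) from day 10. In the Col9a1 class Top2a was at 31.7, 39.8, and 28.0 CPM, Cenpa at 50.1, 33.4, and 30.9 CPM, Birc5 at 27.8, 30.1, and 26.0 CPM, and Mki67 at 23.7, 25.6, and 16.2 CPM. Cenpa was thus lower in the Aspn class than in the Col9a1 class at day 7 and higher at day 10. At day 14 no gene of this group differed between the classes by 1.5-fold, and Mki67 was nearly level, with a log2 difference of 0.08 (-0.03 to 0.18). Cenpf, a kinetochore protein, was at the same level on both days in the Col9a1 class, with a log2 change of 0.00 (-0.08 to 0.09).

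Of the spindle genes, Ube2c was at 38.6, 60.1, and 42.3 CPM in the Aspn class and at 31.5, 36.5, and 35.0 CPM in the Col9a1 class. Prc1, which bundles the microtubules of the midzone, was at 28.1, 40.0, and 24.4 CPM and at 16.8, 26.4, and 22.04 CPM. In both genes and both classes day 10 was the highest of the 3 days. Stmn1 was at 84.3, 98.9, and 85.5 CPM and at 57.4, 48.0, and 55.2 CPM. It followed the called cells more than the D cyclins did, with 505 CPM in G2/M cells, 159 CPM in S cells, and 31.7 CPM in uncalled cells of the Aspn class at day 10. All 6 spindle genes were higher by at least 1.5-fold in the Aspn class at day 10, and at day 14 Stmn1 alone was (all genes 28.5% on each day), with a log2 difference of 0.63 (0.58 to 0.68).

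Within the Col9a1 class, cells were ordered by Col10a1, the collagen of hypertrophic cartilage. At day 10 the G2/M share was 5.24% in cells without a Col10a1 UMI (4.08 to 6.62), 6.79% above 0 and under 100 CPM (5.56 to 8.21), 4.86% from 100 to 1000 CPM (3.65 to 6.32), 1.02% from 1000 to 5000 CPM (0.212 to 2.96), and 0.162% at 5000 CPM and more (0.00410 to 0.900). At day 14 the same bins gave 2.78% (1.40 to 4.93), 6.17% (4.68 to 7.96), 6.02% (4.85 to 7.36), 1.92% (0.834 to 3.75), and 0.664% (0.287 to 1.30). The share was lower above 1000 CPM of Col10a1 than in any bin below it on both days. At day 14 the bin without a Col10a1 UMI was below the bins from above 0 to 1000 CPM. Its interval held the share of the bin from 1000 to 5000 CPM. A cell without a Col10a1 UMI can still express it, since median depth was 17059 UMIs in that bin at day 10 and 22641 UMIs in the next. At day 14 these depths were 15542 and 23498 UMIs. Over the same bins Ihh ran from 27.5 to 692 CPM at day 10 and from 28.9 to 725 CPM at day 14.

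**Figure D4:**
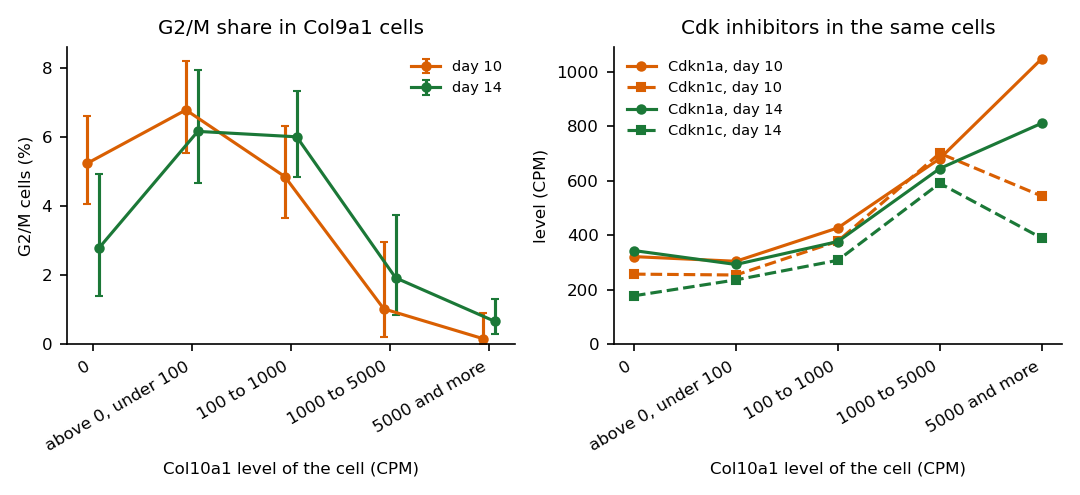
Cells of the Col9a1 class in 5 bins of Col10a1 (CPM per cell, x axis), with the G2/M share in percent and, beside it, the levels of Cdkn1a and Cdkn1c in CPM of summed UMIs, for day 10 and day 14. Lines on the shares are 95% Clopper-Pearson intervals. The G2/M share is lower above 1000 CPM of Col10a1, where Cdkn1a is higher, at 1047 CPM in the top bin of day 10.

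Cdkn1a, the p21 inhibitor of cyclin-dependent kinases, had the opposite pattern. It was at 321, 304, 427, 681, and 1047 CPM over the bins at day 10 and at 343, 292, 376, 644, and 810 CPM at day 14. Cdkn1c, the p57 inhibitor, was at 257, 254, 378, 700, and 543 CPM and at 178, 236, 308, 590, and 389 CPM, so that it was highest in the bin from 1000 to 5000 CPM of Col10a1 and not in the last. Ccnd1 was lowest in the last bin, at 20.4 CPM on day 10 and 15.9 CPM on day 14.

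Col10a1-high cells were then compared with the other cells of the Col9a1 class, gene by gene. All 19 G2/M genes were lower by at least 1.5-fold at day 10 and at day 14, as were 18.5% and 15.4% of all genes tested, with median log2 differences of -3.02 and -2.51. Of the 18 S genes, 11 were lower and 1 was higher at day 10 (17.6% of all genes were higher), and 10 were lower and 1 was higher at day 14 (15.4% were higher, and with at most 5000 genes per cell 6 were lower). At 2-fold, 6 were lower at day 10 and 4 at day 14, and 0 were higher on either day. The shares of all genes given here are at 1.5-fold. The gene that was higher by 1.5-fold was Mcm6 on both days. It was at 30.7 CPM in Col10a1-high cells and 17.2 CPM in the others at day 10, a ratio of 1.79 (1.59 to 2.00), and at 29.5 and 18.8 CPM at day 14, a ratio of 1.57 (1.44 to 1.71). Slbp was level, with ratios of 1.09 (1.00 to 1.19) and 1.00 (0.938 to 1.08), and so was Mcm7, with 0.906 (0.762 to 1.07) and 1.03 (0.910 to 1.17). Pclaf was at 0.870 CPM against 29.2 CPM at day 10, a ratio of 0.0298 (0.0149 to 0.0535) from 11 UMIs, and at 7.30 against 25.4 CPM at day 14. Summed, the S list of Col10a1-high cells was at 174 and 173 CPM on these days and the G2/M list at 52.8 and 73.2 CPM. Slbp, Mcm6, and Pcna were at 48.7, 30.7, and 27.0 CPM within the day 10 sum.

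Rgs5-high cells showed the opposite for G2/M. Against the other Aspn cells, all 19 G2/M genes were higher by at least 1.5-fold at day 10 and 18 of 19 at day 14, as were 18.8% and 19.2% of all genes, with median log2 differences of 1.49 and 1.35. Prc1 was at 137 CPM against 37.0 CPM at day 10, a ratio of 3.71 (3.17 to 4.33), and at 92.3 against 22.4 CPM at day 14, a ratio of 4.12 (3.59 to 4.70). Mki67 was at 108 against 35.6 CPM and at 57.2 against 16.0 CPM. The S genes did not move with them at day 10, when 1 was higher, Pclaf with a ratio of 1.84 (1.54 to 2.19), and 5 were lower, as were 18.0% of all genes. At day 14, 12 of 18 were higher and 1 was lower, as were 16.6% of all genes. At 2-fold, 0 were higher and 1 lower at day 10, and 6 were higher and 0 lower at day 14. The shares of all genes given for Rgs5-high cells are at 1.5-fold. With at most 5000 genes per cell, the day 10 counts were 2 higher and 2 lower. Uhrf1 went from a ratio of 1.37 (0.838 to 2.11) at day 10 to 3.29 (2.33 to 4.52) at day 14, and Mcm3 went from 16.6 against 18.7 CPM to 31.7 against 10.2 CPM (interval of the day 14 ratio 2.45 to 3.87). The day 10 ratios of the S genes rest on few UMIs, 22 for Mcm3 and 21 for Uhrf1 in Rgs5-high cells. Stmn1, Ccnd1, and Ccnd2 were higher by at least 1.5-fold at day 10, with ratios of 2.08 (1.83 to 2.36), 2.06 (1.77 to 2.38), and 1.60 (1.40 to 1.82). At day 14 Stmn1 and Ccnd2 passed the limit, with 2.32 (2.12 to 2.54) and 2.17 (1.99 to 2.36), and Ccnd1 did not, with 1.49 (1.30 to 1.71).

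Most of the cycle genes were lower in Ifitm5-positive cells than in the other Aspn cells, and Ccnd1 was higher. No gene-by-gene comparison with the Col9a1 class was made. At day 10 the summed S list was at 204 CPM in Ifitm5-positive cells and 245 CPM in the Col9a1 class. The summed G2/M list was at 158 and 358 CPM. At day 14 the S list was at 141 and 209 CPM, and the G2/M list at 202 and 304 CPM. Compared with the other Aspn cells, 19 of 19 G2/M genes were lower by at least 1.5-fold at day 10 and 16 of 19 at day 14, and 14 and 15 of the 18 S genes, while 35.6% and 37.6% of all genes were lower, with a median over all genes of -0.37 and -0.40 in log2. The day 14 count of G2/M genes was 4 with at most 5000 genes per cell and 9 at 2-fold. More of the Ifitm5-positive cells lay in the Col9a1 class than in the Aspn class on both days, and their Col2a1 level at day 10 was 6115 CPM. Cenpf was at 5.52 CPM against 42.8 CPM at day 10 and at 21.4 against 27.6 CPM at day 14, with ratios of 0.129 (0.0704 to 0.217) and 0.777 (0.651 to 0.920). Ccne2 did not pass the limit on either day, with ratios of 1.40 (0.907 to 2.07) and 0.867 (0.564 to 1.28). Ccnd2 was at 41.8 against 115 CPM and at 35.2 against 100.3 CPM. Ccnd1 went the other way, at 112 against 70.6 CPM at day 10, a ratio of 1.59 (1.40 to 1.79), and at 107 against 54.7 CPM at day 14, a ratio of 1.97 (1.81 to 2.13). Ccnd1 was the only member that was higher by at least 1.5-fold in Ifitm5-positive cells on these days, against 7.47% and 7.24% of all genes.

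The 30 control genes of the cycle, made of kinase inhibitors, E2F and pocket protein genes, and further kinases and phosphatases, were measured in the same way. Against the Col9a1 class, 12 were higher by at least 1.5-fold and 4 lower in the Aspn class at day 10 (all genes 28.5% and 11.3%), and 10 and 4 at day 14 (28.5% and 10.2%). The 4 that were lower were Cdkn1a, Cdkn1c, Rb1, and Cdk6 on both days. Cdkn1a was at 118, 145, and 184 CPM in the Aspn class and at 431, 453, and 494 CPM in the Col9a1 class over the 3 days, and Cdkn1c at 64.4, 81.8, and 82.4 CPM and at 284, 348, and 330 CPM. Cdk4, the partner of the D cyclins, was at 177, 182, and 199 CPM and at 124, 129, and 132 CPM. Cdkn2a, which gives rise to p16 and p19ARF, was at 24.7, 73.5, and 110 CPM in the Aspn class and at 8.20, 12.8, and 37.0 CPM in the Col9a1 class. From day 10 to day 14 it was the only control gene that was higher by at least 1.5-fold in either class, with log2 changes of 0.59 and 1.53 (all genes 5.4% and 5.45% higher), while 8 were lower in the Aspn class and 3 in the Col9a1 class (all genes 6.0% and 5.53%). The 8 were Foxm1, Mybl2, Cdc25c, E2f7, Gmnn, Rbl1, E2f2, and Wee1. Tags at the 3′ end cannot tell the Cdkn2a products apart.

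Among the classes, Ptprc-positive cells of day 7 had the highest summed level of the G2/M list, 2530 CPM, cells in no class not being compared. Of them, 18.8% were called G2/M (1347 of 7150 cells, 17.9 to 19.8) and 4.22% S (3.77 to 4.72). Another 399 of the 7549 Ptprc-positive cells were too shallow and were left out of these shares. The mature neutrophil group described below, with 0.613% G2/M cells, held 4098 cells, of which 3750 were deep enough. The 189 Ptprc-positive cells of day 14 that reached 2000 UMIs had 16.9% G2/M cells (11.9 to 23.1) and 4.23% S cells. Compared with the Aspn class of day 7, all 19 G2/M genes and 16 of the 18 S genes were higher by at least 1.5-fold, as were 27.0% of all genes tested. With at most 5000 genes per cell, 7 S genes were higher and 1 lower. The shares of all genes in this paragraph were measured without that limit. Mki67 was at 363 CPM against 45.7 CPM, a ratio of 7.94 (6.65 to 9.57), and Ube2c at 320 against 38.6 CPM, a ratio of 8.30 (6.84 to 10.2). Of the other members, Stmn1 was also higher, at 584 CPM against 84.3 CPM, a ratio of 6.93 (6.08 to 7.93). Ccnd1 was lower, at 7.61 CPM against 56.9 CPM, a ratio of 0.134 (0.112 to 0.160), as were 36.9% of all genes. Ccnd2, Ccne1, and Ccne2 did not pass the limit, with ratios of 0.702 (0.620 to 0.797), 0.744 (0.547 to 1.04), and 0.987 (0.718 to 1.39). The G2/M share was 8.36 points above that of the Aspn class of day 7 (0.994 to 13.0), and the S share differed from it by -5.30 points (-12.4 to -1.004). S was called only in cells not called G2/M. With G2/M cells counted in, 14.9% of Ptprc-positive cells (1062 of 7150, 14.0 to 15.7) and 11.4% of Aspn cells (12 of 105, 6.05 to 19.1) had at least 3 UMIs of the S list, so that the order turned.

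The Ptprc-positive cells of day 7 were not uniform. They were divided by marker lists of blood cells, with limits chosen after their values were seen, so the groups are ranges of marker level and not cell types. Each group below passed the limit of its own list and of no other list, unless said. Cells with at least 0.5% of UMIs from Mpo, Elane, Prtn3, Ctsg, and Ms4a3, genes of granulocyte precursors, had 62.7% G2/M and 31.8% S cells (655 cells). Cells with at least 5% from Camp, Ngp, Ltf, Cybb, and Lcn2, genes of immature neutrophils, had 57.3% G2/M and 1.65% S cells (971 cells). Cells with at least 0.5% from Cxcr2, Retnlg, Il1b, Csf3r, and Cxcl2, genes of mature neutrophils, had 0.613% and 0.533% (3750 cells). A further 976 cells passed the limits of both neutrophil lists and had 6.56% G2/M (5.09 to 8.30) and 0.512% S cells, and 451 cells passed no limit and had 34.6% and 5.99%. Another 82 cells with other mixtures had 57.3% and 13.4%. Ccnd2 was at 116 CPM in the precursor group and 6.06 CPM in the immature group, Mcm6 at 168 and 26.6 CPM, and Mki67 at 386 and 673 CPM. Cells with B lineage markers (at least 0.2% of UMIs from Cd79a, Cd79b, Vpreb3, Ebf1, and Igll1) had 42.7% G2/M and 6.64% S cells, and none of 54 cells with at least 0.2% from macrophage markers was called G2/M, which allows 5.56% by the limit of 3 cells and 6.60% by the Clopper-Pearson bound. Median depth ran from 3974 UMIs in the mature group to 43190 UMIs in the precursor group.

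In the Aspn and Col9a1 classes of day 10 and day 14 and in Ptprc-positive cells of day 7, called cells more often had over 5000 genes than uncalled cells, an upper limit that is often set on cells. In the Aspn class, 26.2% of called cells (S or G2/M) and 7.24% of uncalled cells had over 5000 genes at day 10, and 27.9% and 6.90% at day 14. In the Col9a1 class these were 41.0% and 7.51% at day 10 and 36.1% and 8.59% at day 14. In day 7 skeletal cells they were 57.1% (34.0 to 78.2) and 44.0% in the Aspn class and 63.0% (42.4 to 80.6) and 60.5% in the Col9a1 class, and in both the interval of called cells held the share of uncalled cells. Among Ptprc-positive cells of day 7 they were 45.8% and 2.40%. With at most 5000 genes per cell, the G2/M share was 8.35% and 3.73% in the Aspn class and 2.90% and 2.54% in the Col9a1 class at day 10 and day 14, and 12.7% in Ptprc-positive cells. The Aspn class stayed above the Col9a1 class, by 5.45 points at day 10 (4.30 to 6.68) and 1.19 points at day 14 (0.470 to 1.89). Leaving out the 5% of cells with the highest doublet scores moved none of the Aspn, Col9a1, or Ptprc-positive shares beyond its interval, an alternative chosen after the data were seen. It took the G2/M share of Col10a1-high cells to 0 of 615 cells at day 10 and to 0.366% at day 14 (0.119 to 0.852).

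**Figure D5:**
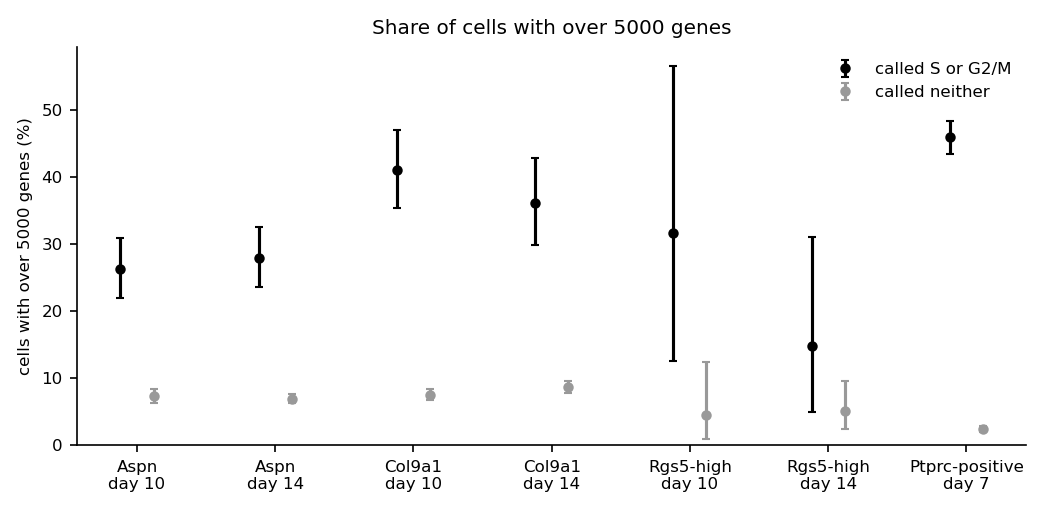
Percent of cells with over 5000 genes (y axis) among called cells (S or G2/M) and uncalled cells, by class and day. Lines are 95% Clopper-Pearson intervals. In the Col9a1 class of day 10 the values were 41.0% and 7.51%, and in Ptprc-positive cells of day 7 they were 45.8% and 2.40%.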

How the data were processed

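Single-cell RNA libraries of sorted callus cells, 1 per day, were deposited by the authors as count matrices of whole UMIs per gene and cell. They were made with Cell Ranger on mm10, given as version 3.0 in the submitters' processing notes and 3.1.0 in the file headers. The paper names a later version than either, and its library kit version differs from that of the sample labels. No normalization had been applied to the deposited counts. The members and lists were chosen with earlier results of these data known.

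Cells with at least 500 genes were kept. Counts were summed over a class for levels (CPM), with exact Poisson 95% intervals. Ratios had exact binomial intervals over genes with at least 50 UMIs on both sides together, and 1.5-fold was used as the limit for calling a gene higher or lower. Shares of all genes are given for this limit with no upper limit on genes per cell, and not for the alternatives. Shares had Clopper-Pearson intervals and their differences Newcombe intervals. Thinning used a fixed seed. Where a class held no called cell, the limit was 3 cells over the number of cells. Values per library were given for the 3 genes with the highest CPM of each role group and for members past 1.5-fold against the rest of their list. The code was tested on simulated data. Doublets were kept. Alternatives covered the call limits, thinning, gene and mitochondrial limits, gate, lists, marker limits, overlaps, and fold. Tools were Python 3.11.15, numpy 2.4.6, scipy 1.17.1, pandas 2.3.3, and scanpy 1.11.5.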

Additional observations from a re-analysis of the deposited data

Results flagged for a closer look

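Cells in no class, with no Ptprc UMI and too few matrix UMIs for the skeletal gate, were left out of the comparisons and still held called cells. Of those thinned to 2000 UMIs, 46.1% were called G2/M at day 7 (112 of 243), 7.78% at day 10 (7 of 90), and 5.07% at day 14 (24 of 473). The day 7 G2/M cells held Hbb-bs, a hemoglobin gene, at 105669 CPM, and 48.2% of them had over 5% of UMIs from hemoglobin. The 54 G2/M cells above that limit had Mki67 at 2283 CPM and Alas2, the heme synthesis enzyme of erythroid cells, at 965 CPM. At day 10 the G2/M cells in no class had Spp1 at 33384 CPM. At day 14 they had S100a8 at 6790 CPM, Hbb-bs at 3867 CPM, and Spp1 at 2336 CPM, against 1021, 0.797, and 38033 CPM in uncalled cells in no class. A single cell of these 24 had over 5% of UMIs from hemoglobin.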

How the results depend on the processing

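Of 402 shares recomputed under 16 alternatives, 303 stayed within the interval of the reported value, and of 64 member counts between the Aspn and Col9a1 classes or between days 52 stayed within 1.5 times, as did 63 of 84 counts for the Rgs5-high, Col10a1-high, Ifitm5-positive, and Ptprc-positive cells. In each of the 13 alternatives that recomputed the Rgs5-high and Col10a1-high cells, the former had a higher G2/M share than the Aspn class and the latter the lowest share. In each of the 12 that recomputed the Aspn and Col9a1 classes, the Aspn class had a lower G2/M share at day 14 than at day 10 and was above the Col9a1 class at day 10, and at day 14 it was above it in each but the one without overlapping classes. In the following, shares are in percent. With a limit of 2 UMIs, the S and G2/M shares were 5.40 and 21.9 in Ptprc-positive cells of day 7, 7.99 and 12.8 in the Aspn class and 4.60 and 5.94 in the Col9a1 class of day 10, and 5.79 and 6.36 and then 3.80 and 4.85 in these classes at day 14. With 4 UMIs, G2/M was 17.4 in Ptprc-positive cells, 8.31 in Aspn and 3.98 in Col9a1 cells of day 10, and 4.12 in Aspn cells of day 14, and S was 2.58 in Aspn cells of day 10, 1.15 in those of day 14, and 0.618 in Col9a1 cells of day 14. Without thinning, at 1500 CPM, G2/M was 17.9 in Ptprc-positive cells and 4.40 in Aspn cells of day 14, and S was 1.02 in Col9a1 cells of day 10 and 1.15 and 0.538 in Aspn and Col9a1 cells of day 14. With 4000 UMIs and a limit of 6, Ptprc-positive cells had 5.003 and 26.1, and S was 1.04 in Col9a1 cells of day 10 and 1.28 and 0.718 in Aspn and Col9a1 cells of day 14. Another seed gave an S share of 1.74 in Aspn cells of day 14. With at most 5000 genes, S and G2/M were 1.53 and 12.7 in Ptprc-positive cells, 2.78 and 8.35 in Aspn and 1.13 and 2.90 in Col9a1 cells of day 10, and G2/M was 3.73 and 2.54 at day 14. With all 20 genes in each list, Ptprc-positive cells had 3.16 and 21.1, S was 8.48 in Aspn and 2.07 in Col9a1 cells of day 10 and 5.26 and 1.95 at day 14, and G2/M was 5.89 in Aspn cells of day 14. With scanpy's phase scores, S and G2/M were 12.1 and 15.1 in Ptprc-positive cells, 26.4 and 14.3 in Aspn and 17.5 and 8.86 in Col9a1 cells of day 10, and 27.3 and 10.5 and then 27.8 and 8.32 at day 14, where the order of the S shares turned. Without overlapping classes, G2/M in Col9a1 cells was 5.46 at day 10 and 5.19 at day 14. Members higher in Aspn than Col9a1 cells at day 10 were 13 at 2-fold, and at day 14 they were 23 at the lowest fold limit tried, 3 at 2-fold, 6 when centred, 28 with at most 5000 genes, and 7 without overlapping classes. From day 10 to day 14, members lower in the Aspn class were 2 at 2-fold, and in the Col9a1 class 16 at the lowest fold limit (with 1 higher), 0 at 2-fold, 2 with at most 5000 genes, and 1 without overlapping classes. The causes were not tested. The planned removal of doublets was not usable, since the caller marked 0, 1, and 1 cells, and leaving out the top 5% of scores was added after the data were seen. No paired analysis was possible because each day had 1 library.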
